A study of Mus musculus with 8 samples.

Results

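Macrophages in which floxed Thoc5 had been targeted were compared with macrophages labelled with ERT2 Cre alone, both grown for 3 days in CSF-1 and both given tamoxifen. The arrays were chosen by their genotype and treatment labels. They are 2 arrays of ERT2 Cre Thoc5 (flox/flox) cells with tamoxifen, called flox cells here, and 2 arrays of cells labelled ERT2 Cre alone with tamoxifen, called control cells, which makes 4 of the 8 arrays of the series. The other 4 arrays hold both genotypes at day 3 without tamoxifen. All cells were bone marrow derived macrophages of mice on a C57BL/6 x B6:129 Ola background, and all carried ERT2 Cre, a Cre recombinase that tamoxifen activates. Tamoxifen and active Cre are therefore common to both groups. The promoter that drives the Cre and the number of mice behind each RNA are not given in the sources used here.

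Each array carried 2 cytoplasmic RNAs, 1 from day 3 and 1 from untreated day 0 cells of the same genotype and experiment, in different dyes. Each day 0 RNA was hybridised to 2 arrays, with and without tamoxifen at day 3. Each group has 1 array from each of 2 biological experiments, and all dyes were swapped in experiment 2, so that experiment, dye direction and slide are the same split. Day 3 RNA had the same dye on the flox and the control array of an experiment. A gene was therefore read in 3 ways, all on a log2 scale: as the ratio of day 3 over day 0 on each array, as the normalized level of the day 3 channel alone, and as the level of the day 0 channel. A difference in ratio is close to the day 3 difference minus the day 0 difference. The standard error printed after ± is that of the limma fit with n = 2 arrays per group, which limits the precision of every value, and an adjusted p is limma's Benjamini-Hochberg value over all genes.

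THOC5 is a subunit of the THO complex, which together with other proteins forms TREX, the complex that couples transcription to export of mRNA from the nucleus. Because the RNA is cytoplasmic, a gene whose transcript stays in the nucleus would read low here whatever its transcription. CSF-1 is the growth factor that turns bone marrow progenitors into macrophages by way of dividing monocytes, cells that then gain phagocytic receptors and lysosomes.

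Of the 39429 probes of an array, 22407 were kept, for 18004 genes, and 51.2% to 57.9% of the probes of a channel had a signal well above background. The macrophage markers Csf1r and Adgre1 were well above background on every array. Csf1r, the CSF-1 receptor, had log2 day 3 levels of 17.82 and 17.44 in flox cells and 17.83 and 17.55 in control cells, and Adgre1 (F4/80) of 17.78 and 17.75 in flox cells and 17.65 and 17.96 in control cells. Markers of other cell types were present as well. The log2 of the summed day 3 levels of 6 measured neutrophil markers was 15.38 and 15.16 in flox cells and 15.80 and 16.17 in control cells. That of 3 megakaryocyte markers was 16.20 and 15.42 in flox cells and 16.27 and 15.88 in control cells. The brightest marker weighs most in such a sum, here Elane for neutrophils and Pf4 for megakaryocytes. Elane differed by -1.28 at day 3, flox minus control. Mpo and Ltf went the other way, at 1.66 and 0.96 (limma adjusted p = 0.00642 and 0.011). S100a8, Camp and S100a9 differed by 0.68, 0.39 and 0.05 and did not pass. S100a9 was higher in flox cells in experiment 1 and lower in experiment 2. The dendritic cell marker Siglech had 14.79 and 14.77 in flox cells and 14.37 and 14.91 in control cells. Of the mast cell, basophil and eosinophil markers, Prg2 was well above background on all 4 arrays at day 3 and Cpa3 on none. The flox cells of experiment 1 stood apart from the other cells in sex-linked genes. The Y-linked Ddx3y had a log2 day 3 level of 6.14 in flox cells of experiment 1 and 12.01 in flox cells of experiment 2, and of 12.22 and 12.47 in control cells. Eif2s3y, also Y-linked, had 6.55 and 13.37 in flox cells, and 13.34 and 13.71 in control cells. Xist, which is transcribed from the inactive X chromosome, had a log2 day 0 level of 9.29 in flox cells of experiment 1, against 6.07 in flox cells of experiment 2 and 6.04 and 6.18 in control cells, all 3 of which were not well above background. The labels give no sex. Day 3 counts of the gene lists below, and ratio counts where a list is described by its ratios, are therefore also given without the flox array of experiment 1, while day 0 counts could not be, since no residual degrees of freedom remain without a day 0 RNA.

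Thoc5 itself, measured by a probe at chr11:4828807-4828866 of the mm9 build, was lower on both flox arrays. Its log2 day 3 levels were 9.56 and 9.54 in flox cells, against 12.35 and 12.48 in control cells. The difference was -2.86 ± 0.12 (limma adjusted p = 0.000278), a 7.27-fold lower level, and at day 0, before tamoxifen, it was -0.08. By ratio the difference was -2.85 ± 0.10 (limma adjusted p = 0.000744).

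The flox and control arrays differed in many genes. At day 3, limma called 3141 of 18001 tested genes, or 17.4%, of which 1645 (9.14%) were higher and 1496 (8.31%) lower in flox cells. At least 2-fold differences were found for 353 (1.96%) and 357 (1.98%) of them. By ratio it called 2026 genes, or 11.3%, with 975 (5.42%) higher and 1051 (5.84%) lower. The arrays of the groups did not overlap for 55.2% of all genes at day 3 and for 50.9% by ratio, so that groups that do not overlap are common here. Of the 2026, 1464 were also called in the same direction at day 3, 546 were not called there, and 16 were called in the opposite direction. The 1661 genes called at day 3 but not by ratio include genes whose day 0 levels already differed, described further on. Over all genes the median log2 difference was -0.01 by ratio, -0.01 at day 3 and -0.02 at day 0. The counts depended on single arrays. Once the flox array of experiment 1 was left out, 1171 genes were called at day 3 and 325 by ratio. Without that of experiment 2 the counts were 541 and 258. Without the control array of experiment 1 they were 673 and 0, with 2867 genes at an unadjusted p under 0.05 by ratio, and without that of experiment 2 they were 497 and 26. The array left alone in its group is assumed to vary like the other groups. Ratio calls of every gene and list below are thus lost without the control array of experiment 1, while of the 24 genes named for their day 3 difference, all kept their direction without each array in turn and 20 to 24 still passed. Of all 82 genes given here with a day 3 call, 64 still passed without the flox array of experiment 1, 47 without that of experiment 2, and 56 and 46 without the control arrays of experiments 1 and 2.

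**Figure D1:**
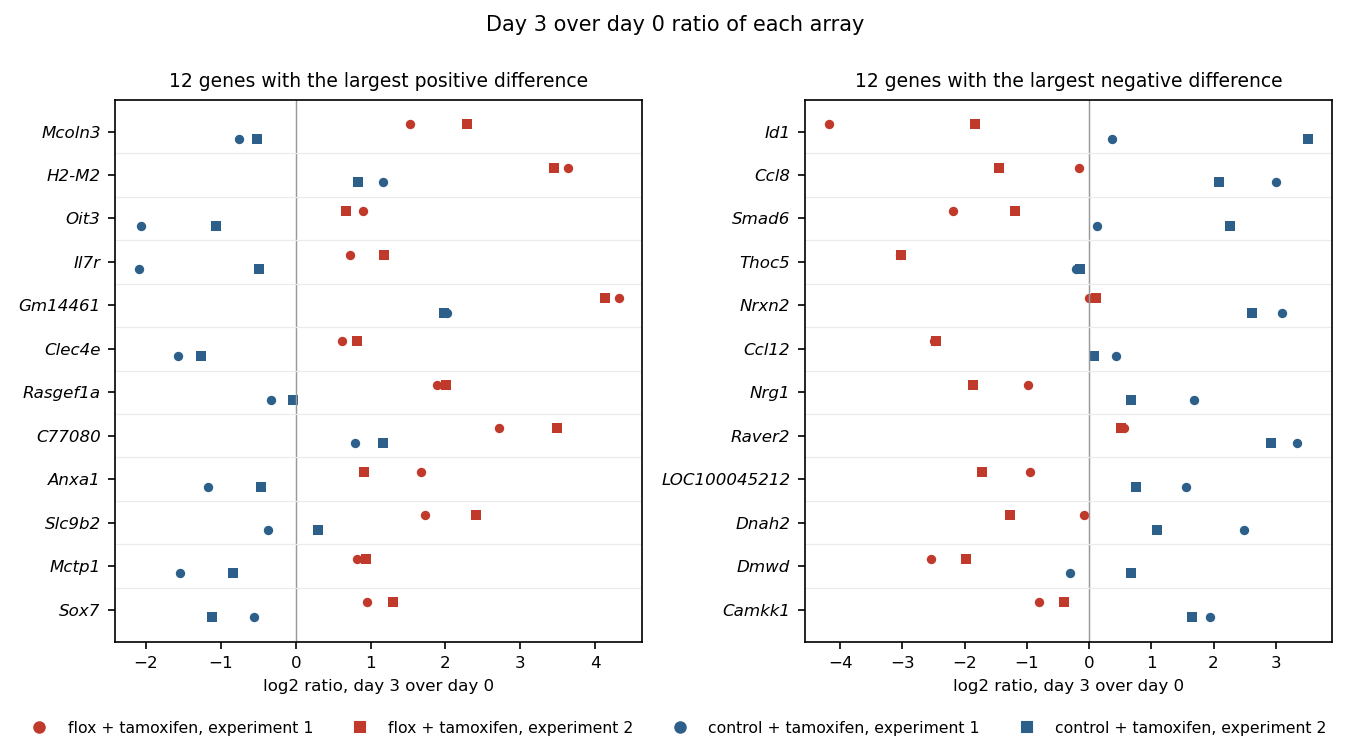
Log2 ratio of day 3 over day 0 on each array for the 12 genes with the largest positive difference (left) and the 12 with the largest negative difference (right), flox cells in red above control cells in blue, with circles for experiment 1 and squares for experiment 2. In all 24 genes both flox arrays lie on the same side of both control arrays, which is a consequence of how the genes were chosen; Id1 spans the widest range, between -4.18 on a flox array and 3.52 on a control array.

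Among the genes higher in flox cells, Mcoln3 and H2-M2 had the most positive ratio differences of the named genes. Mcoln3 encodes a cation channel of endosomes and lysosomes (TRPML3), and its probe lies at chr3:145804285-145804344. Its log2 day 3 levels were 10.79 and 10.92 in flox cells, against 7.75 and 7.70 in control cells, a difference of 3.13 ± 0.13 (limma adjusted p = 0.000245), or 8.76-fold. Between day 0 and day 3 Mcoln3 went up on both flox arrays, with log2 ratios of 1.53 and 2.29, and down on both control arrays, with -0.76 and -0.52. A further Mcoln3 probe gave a day 3 difference of 1.89. H2-M2, an MHC class I gene of the nonclassical kind, had log2 day 3 levels of 11.75 and 11.10 in flox cells, against 8.27 and 7.61 in control cells (difference 3.49 ± 0.18, limma adjusted p = 0.000509). Its ratios were 3.64 and 3.44 in flox cells and 1.17 and 0.84 in control cells, where the day 0 level was not well above background.

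Other genes of this group went up from day 0 in flox cells and down in control cells. Clec4e, which encodes the glycolipid receptor Mincle, had ratios of 0.62 and 0.82 in flox cells and -1.57 and -1.26 in control cells, and its day 3 difference was 2.13 ± 0.20 (limma adjusted p = 0.00221). Il7r, the interleukin 7 receptor alpha chain, had ratios of 0.73 and 1.17 in flox cells and -2.09 and -0.50 in control cells, and its day 3 difference was 1.86 ± 0.14 (limma adjusted p = 0.00138). Anxa1, a phospholipid-binding protein, had ratios of 1.67 and 0.91 in flox cells and -1.17 and -0.47 in control cells, with a day 3 difference of 1.38 from 1 probe and 1.36 from another. In these 3 genes both flox arrays lay above 0 and both control arrays below it. Rasgef1a, a guanine nucleotide exchange factor, differed by 2.13 ± 0.11 at day 3, Mctp1 by 1.97 ± 0.16 and the exchanger gene Slc9b2 by 2.02 ± 0.34. Mctp1 has another probe, at which the difference was 0.38. Sox7, a transcription factor gene, was not well above background in control cells at day 3 and was at least 3.29-fold higher in flox cells (limma adjusted p = 0.00138).

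The most negative ratio difference of the named genes was that of Id1, and several genes of the same BMP-responsive group were lower with it. Id1 and Id3 encode proteins that bind and block basic helix-loop-helix transcription factors, and Smad6 and Smad7 encode inhibitory SMADs that damp BMP and TGF-beta signalling. Id1 (probe at chr2:152563083-152563142) had log2 day 3 levels of 9.67 and 10.49 in flox cells, against 13.83 and 13.67 in control cells. The groups did not overlap, and the difference was -3.67 ± 0.40 (limma adjusted p = 0.00345). Its ratios were far apart within each group, at -4.18 and -1.83 in flox cells and 0.37 and 3.52 in control cells. Its day 0 levels also varied between experiments, at 13.85 and 12.32 on the flox arrays and 13.47 and 10.16 on the control arrays. Without the experiment as a block all ratio calls of the ID and SMAD genes counted below are lost, those of Id1 and Smad6 among them. The day 3 calls of Id1 and Smad6 are kept.

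Smad6 had log2 day 3 levels of 8.25 and 8.32 in flox cells, against 10.77 and 10.69 in control cells (difference -2.45 ± 0.10, limma adjusted p = 0.000245). Id3 had 12.90 and 12.94 in flox cells, against 15.07 and 14.88 in control cells (difference -2.05 ± 0.11, limma adjusted p = 0.000538). Smad7 had 8.71 and 8.97 in flox cells, against 10.79 and 10.48 in control cells (difference -1.80 ± 0.15, limma adjusted p = 0.002). For each of these genes both flox arrays lay well below both control arrays. Of 18 measured ID and SMAD genes, 8 were lower at day 3, 1 was higher and 9 missed the threshold. The median difference was -0.33, and 14 were lower in both experiments, as were 38.5% of all genes. The gene that was higher was Tgfbr1, which encodes a TGF-beta receptor (difference 1.12 ± 0.13, limma adjusted p = 0.00385). Without the experiment as a block 5 of the list were lower and 1 higher at day 3. By ratio 5 were lower and 1 higher with the block, and 0 passed without it. When the flox array of experiment 1 was dropped, 6 were lower and 2 higher, and without each of the other arrays 4 were lower and 1 higher.

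CC chemokines, which attract monocytes and other leukocytes, and their receptors held several of the more negative differences. Of 17 measured genes of this list, 8 were lower at day 3, 1 was higher and 8 missed the threshold. Their median difference was -0.73 against -0.01 over all genes, and 14 were lower in both experiments, against that 38.5% of all genes. Ccl8 had log2 day 3 levels of 8.95 and 9.87 in flox cells, against 12.37 and 12.28 in control cells (difference -2.92 ± 0.38, limma adjusted p = 0.00588). Its ratio was positive only on the control arrays, at 3.01 and 2.09, against -0.17 and -1.45 in flox cells. Ccl12 had log2 day 3 levels of 8.02 and 8.37 in flox cells, against 11.26 and 10.81 in control cells (difference -2.84 ± 0.34, limma adjusted p = 0.00492). Both day 3 calls are lost without the flox array of experiment 2, at adjusted p-values of 0.0503 and 0.0528 by limma. The gene that was higher was Ccrl2, a receptor-like gene of the same family, at 1.09 ± 0.10 (limma adjusted p = 0.00215). With the flox array of experiment 1 removed, 6 genes of the list were lower and 1 higher, and without each of the other arrays 2 to 5 were lower. In bulk RNA, fewer cells of a type and less RNA per cell cannot be told apart.

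Some monocyte genes were also lower by ratio. Of 16 measured, 6 were lower (37.5%, against 5.84% of all genes), 10 did not pass and 0 were higher. The median ratio difference was -0.51, and the ratio differences of Fn1, Gpr141, Ear2 and Ifi204 were positive, at 0.60, 0.64, 0.17 and 0.12, without passing. At day 3, 4 were lower and 2, Fn1 and Plac8, were higher. F13a1, the coagulation factor XIII A chain of monocytes, had log2 ratios of -3.83 and -4.74 in flox cells, against -1.70 and -2.47 in control cells, and its day 3 difference was -1.87 ± 0.13 (limma adjusted p = 0.00122). Its ratio was negative on every array, and lower on both flox arrays. That day 3 call is lost without the experiment as a block. Itgal, the alpha chain of the integrin LFA-1, differed by -1.32 ± 0.11 at day 3 (limma adjusted p = 0.00186) and Klra2, a lectin-like receptor, by -1.55 ± 0.13 (limma adjusted p = 0.002). With the flox array of experiment 1 left out, 3 monocyte genes were lower and 1 higher by ratio, and 3 lower and 2 higher at day 3, and without each of the other arrays 3 were lower and 0 to 1 higher. The log2 of the summed levels of the 2 measured monocyte markers, F13a1 and Ccr2, was 11.34 and 10.61 in flox cells, against 13.18 and 12.35 in control cells.

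Macrophage markers split. Of 30 measured, 10 were higher and 5 lower at day 3, a share of 50% against 17.4% of all genes, and 15 missed the threshold. The list's median difference was 0.17. The log2 of the summed levels of the 7 macrophage markers used to check identity was 19.94 and 19.89 in flox cells, against 19.81 and 19.86 in control cells. Trem2, a lipid-sensing receptor, differed by 0.97 ± 0.12 (limma adjusted p = 0.00575), the lectin gene Lgals3 by 0.56 ± 0.13 (limma adjusted p = 0.0312) and Mpeg1, which encodes the pore-forming perforin-2, by 0.53 ± 0.10 (limma adjusted p = 0.0165). Fcgr1, the high-affinity IgG receptor, had log2 day 3 levels of 12.16 and 12.33 in flox cells, against 13.04 and 13.44 in control cells (limma adjusted p = 0.0047), and a related receptor gene, Fcgr4, was lower, with a difference of -2.15 ± 0.13 (limma adjusted p = 0.000857). Once the flox array of experiment 1 was left out, 3 of the markers were higher and 3 lower, and without each of the other arrays 1 to 2 were higher and 1 to 3 lower. With arrays centred on their medians in place of loess the median of the markers was 0.01.

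Genes for other macrophage proteins, secreted or at the cell surface, were among the larger negative differences. Cd5l, a secreted scavenger-family protein of tissue macrophages, had log2 day 3 levels of 13.49 and 13.48 in flox cells, against 15.72 and 15.88 in control cells (difference -2.31 ± 0.12, limma adjusted p = 0.000509). Fcrls, an Fc receptor-like gene, had 14.56 and 14.30 in flox cells, against 16.45 and 16.68 in control cells (difference -2.13 ± 0.15, limma adjusted p = 0.00123). The Fcrls ratios were 0.76 and -0.24 in flox cells, against 2.41 and 1.77 in control cells, so that the increase over day 0 on both control arrays was smaller or missing on the flox arrays. Of 12 measured MS4A and TMEM176 genes, which encode multi-span membrane proteins, 7 were lower at day 3, 1 was higher and 4 missed the threshold. As a list they had a median difference of -0.67, and 66.7% were called at day 3, against 17.4% of all genes. Tmem176a differed by -2.20 ± 0.22 (limma adjusted p = 0.00258) and Ms4a4a by -1.70 ± 0.24 (limma adjusted p = 0.00735). By ratio the Tmem176a difference was smaller, at -1.31 to -0.89 over all settings, so that part of its day 3 difference was present at day 0. That of Ms4a4a was -2.07 to -1.73 by ratio. The gene that was higher was Ms4a3, a granulocyte progenitor gene, at 0.62 ± 0.17 (limma adjusted p = 0.0483), whose day 0 level also was higher in flox cells, by 1.81. When the flox array of experiment 1 was dropped, 5 genes of the list were lower and 0 higher, and without each of the other arrays 1 to 3 were lower.

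Costimulatory ligands moved in both directions. Cd83, which encodes a surface protein of activated antigen-presenting cells, had log2 day 3 levels of 13.61 and 13.53 in flox cells, against 11.99 and 11.82 in control cells (difference 1.66 ± 0.13, limma adjusted p = 0.00158). Cd86, a ligand of CD28 on T cells, had 10.11 and 10.05 in flox cells, against 12.03 and 12.20 in control cells (difference -2.03 ± 0.17, limma adjusted p = 0.00185). The groups did not overlap for either gene. Of 13 measured genes of the list, 5 were higher and 2 lower, and 6 did not pass, against 9.14% higher and 8.31% lower of all genes. Leaving out the flox array of experiment 1 gave 2 higher and 2 lower, and over the 4 arrays left out in turn 1 to 2 were higher and 1 to 2 lower.

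Lysosome genes were, in part, higher in flox cells. Of 40 measured, 16 were higher at day 3, 1 was lower and 23 missed the threshold. The median difference was 0.34 (0.27 and 0.38 in experiments 1 and 2), and 31 were higher in both experiments, as were 35.3% of all genes. By ratio 15 were higher and 1 lower, with a median of 0.41, and the median difference at day 0 was 0.01. Atp6v1a, a subunit of the proton pump that acidifies lysosomes, had log2 day 3 levels of 15.83 and 16.05 in flox cells, against 15.14 and 15.15 in control cells (difference 0.79 ± 0.13, limma adjusted p = 0.0106). The protease gene Ctsb differed by 0.49 ± 0.12 (limma adjusted p = 0.0335) and Ctsa by 0.71 ± 0.13 (limma adjusted p = 0.0139). The gene that was lower was Ctsc, the cathepsin that activates granule proteases, at -0.57 ± 0.11 (limma adjusted p = 0.0159). Apart from Mcoln3 the differences were modest, and few held when an array was left out: without the flox array of experiment 1, 6 were higher at day 3 and 3 by ratio, and over the 4 arrays left out in turn between 3 and 6 were higher at day 3.

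Many lysosome genes carry an E-box known as the CLEAR element, which the transcription factors TFEB and TFE3 bind. It was searched for as TCACGTG and its reverse complement CACGTGA in the 250 bases before each start site, in RefSeq promoters of GRCm38.p6. Of the 31 lysosome genes with a promoter sequence 10 held it, or 32.3%, against 5.5% of 10921 genes. A match is a description of the letters and not a bound site. The promoters of Atp6v1a (chr16:44139260-44139509, minus strand) and Ctsa (chr2:164833523-164833772, plus strand) are shown as examples with the motif. They were picked by a small limma p at day 3 without regard to direction, and both genes were higher in flox cells. How many of the 10 genes were called was not counted. Capitals mark the motif, which in each matches on both strands in overlapping positions.
Atp6v1a: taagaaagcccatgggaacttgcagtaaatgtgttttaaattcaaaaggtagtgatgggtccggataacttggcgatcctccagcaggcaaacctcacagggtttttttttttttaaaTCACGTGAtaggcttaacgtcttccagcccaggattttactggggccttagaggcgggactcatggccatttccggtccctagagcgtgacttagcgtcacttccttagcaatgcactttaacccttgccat
Ctsa: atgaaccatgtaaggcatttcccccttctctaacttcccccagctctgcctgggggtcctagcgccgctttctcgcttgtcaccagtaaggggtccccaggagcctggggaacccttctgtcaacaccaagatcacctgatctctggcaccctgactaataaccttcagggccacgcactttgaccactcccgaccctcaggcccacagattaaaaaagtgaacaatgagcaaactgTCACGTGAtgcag

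Cholesterol synthesis genes were mostly lower in flox cells. Of 23 measured, 16 were lower at day 3, 1 was higher and 6 missed the threshold. Their median difference was -0.51 (-0.53 and -0.50 in the experiments), and 20 were lower in both, against 38.5% of all genes. By ratio 9 were lower and 1 higher. Cyp51, the lanosterol demethylase, had log2 day 3 levels of 9.60 and 9.71 in flox cells, against 10.69 and 10.82 in control cells (difference -1.10 ± 0.10, limma adjusted p = 0.00224). Neither flox array reached either control array. Sqle, squalene epoxidase, differed by -0.90 ± 0.12 (limma adjusted p = 0.0062). The gene that was higher was Srebf2, which encodes the transcription factor that drives the pathway, at 0.80 ± 0.12 (limma adjusted p = 0.00911). Over all settings the Srebf2 difference ranged from 0.05 to 0.87 at day 3 and from 0.16 to 0.87 by ratio. It did not pass in every setting. With the flox array of experiment 1 removed, 4 were lower at day 3 and none by ratio, and without each of the other arrays 2 to 6 were lower at day 3. Without the experiment as a block 6 were lower at day 3.

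The sterol regulatory element through which SREBP factors act was searched for as TCACNCCAC and its reverse complement GTGGNGTGA, and 1 of 16 cholesterol genes with a promoter sequence held it (6.2%, against 1.2% of all genes). It was Hmgcs1, which condenses acetyl-CoA units at the start of the pathway and differed by -0.46 ± 0.12 at day 3 (limma adjusted p = 0.0411). Its promoter (chr13:119690101-119690350, plus strand) is shown with the match in capitals.
Hmgcs1: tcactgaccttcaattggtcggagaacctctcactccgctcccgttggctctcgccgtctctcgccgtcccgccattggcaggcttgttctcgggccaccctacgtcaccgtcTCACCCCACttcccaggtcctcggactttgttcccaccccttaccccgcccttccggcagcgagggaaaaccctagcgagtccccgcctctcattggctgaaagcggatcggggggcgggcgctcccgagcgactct

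Genes of fatty acid uptake and handling that PPAR-gamma controls were, in part, higher. Of 23 measured, 7 were higher at day 3 and 1 lower, and 15 missed the threshold. The list's median difference was 0.30, and 34.8% were called at day 3, against 17.4% of all genes. Fabp4, a fatty acid binding protein, had log2 day 3 levels of 14.61 and 14.90 in flox cells, against 12.80 and 12.67 in control cells (difference 2.02 ± 0.19, limma adjusted p = 0.00224). Its ratios were 0.42 and 0.97 in flox cells and -0.92 and -1.19 in control cells, so that the level went up from day 0 in flox cells and down in control cells. Lpl, lipoprotein lipase, differed by 1.12 ± 0.18 (limma adjusted p = 0.011), and the gene that was lower was Acsl3, an acyl-CoA synthetase, at -0.63 ± 0.16 (limma adjusted p = 0.0436). Without the flox array of experiment 1, 5 were higher and 0 lower, and without each of the other arrays 2 to 4 were higher.

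DNA replication genes were mostly higher in flox cells. Of 44 measured S phase genes, 36 were higher in flox cells, 0 were lower and 8 missed the threshold. As a list they had a median difference of 0.82 (0.60 and 0.94 in experiments 1 and 2), and 41 were higher in both experiments, against 35.3% of all genes. Rrm2, the small subunit of ribonucleotide reductase, had log2 day 3 levels of 14.25 and 14.81 in flox cells, against 12.95 and 12.83 in control cells (difference 1.64 ± 0.19, limma adjusted p = 0.00395). Mcm6, a subunit of the replicative helicase, differed by 1.15 ± 0.11 (limma adjusted p = 0.00249), Uhrf1, which maintains DNA methylation at the fork, by 1.15 ± 0.15 (limma adjusted p = 0.0062) and Pole, a DNA polymerase, by 1.06 ± 0.18 (limma adjusted p = 0.0116). The ratios of Rrm2 were -0.80 and -0.02 in flox cells and -2.13 and -1.33 in control cells: the decrease from day 0 on both control arrays was smaller on 1 flox array and close to 0 on the other. By ratio 15 of the 44 were higher, with a median of 0.52. At day 0 the median difference was 0.00 in experiment 1 and 0.43 in experiment 2.

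For mitotic genes the share of calls was close to that of all genes. Of 40 measured G2 and mitosis genes, 6 were higher and 3 lower at day 3, which is 22.5% against 17.4% of all genes, and 31 missed the threshold. The median difference was 0.10. Of the 3 lower genes, Cdc20, an activator of the anaphase-promoting complex, differed by -0.74 ± 0.10 (limma adjusted p = 0.0073), Ube2c, its ubiquitin-conjugating partner, by -0.60 ± 0.16 (limma adjusted p = 0.044) and Cenpa, the centromeric histone, by -0.59 ± 0.11 (limma adjusted p = 0.0173). The difference between the 2 lists was not tested. Once the flox array of experiment 1 was left out, 24 S phase genes were higher at day 3 and 1 by ratio, and without each of the other arrays between 4 and 11 were. Of the G2 and mitosis genes, 3 were higher and 0 lower without the flox array of experiment 1, and 1 to 2 were higher and 0 to 1 lower without each of the others.

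The E2F site, through which E2F factors act on replication genes, was searched for as TTTNGCGC and its reverse complement GCGCNAAA. Of 36 S phase genes with a promoter sequence 5 held it (13.9%, against 2.2% of all genes). The Mcm6 promoter (chr1:128359706-128359955, minus strand), with 3 matches of which 2 overlap, is shown with the matches in capitals.
Mcm6: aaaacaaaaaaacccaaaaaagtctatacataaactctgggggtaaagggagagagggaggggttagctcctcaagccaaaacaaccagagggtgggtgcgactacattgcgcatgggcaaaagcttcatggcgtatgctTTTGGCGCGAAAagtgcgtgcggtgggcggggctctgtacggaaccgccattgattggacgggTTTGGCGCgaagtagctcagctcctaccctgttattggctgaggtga

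**Figure D2:**
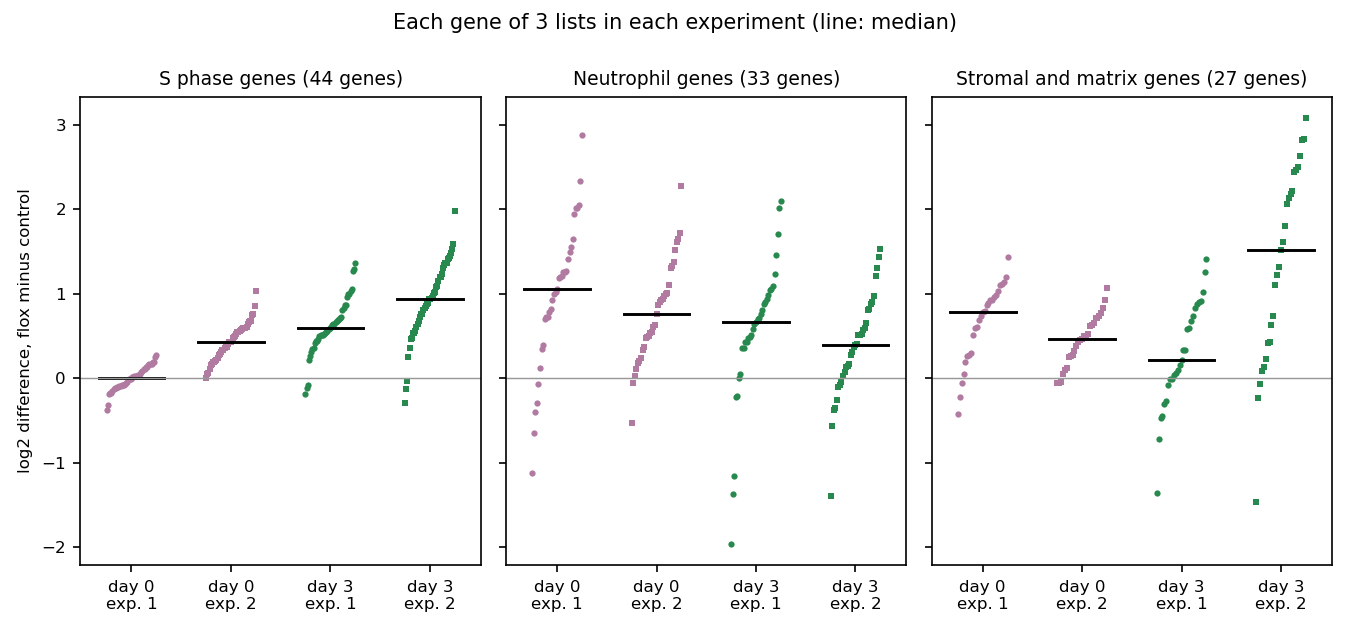
Log2 difference, flox minus control, of each gene of 3 lists at day 0 (purple) and day 3 (green), with circles for experiment 1 and squares for experiment 2 and a black line at the median. S phase genes have medians of 0.60 and 0.94 at day 3. Neutrophil genes are already above zero at day 0 with medians of 1.06 and 0.76, as are stromal genes with 0.78 and 0.47. At day 3 stromal genes are at 0.21 in experiment 1 and 1.52 in experiment 2.

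Neutrophil genes show how the readouts can point in opposite directions. By ratio, 16 of 33 measured were lower in flox cells, 1 was higher and 16 missed the threshold, against 5.84% lower and 5.42% higher of all genes. Their median difference was -0.48. At day 3, however, 15 were higher, 1 was lower and 17 missed the threshold, against 9.14% higher and 8.31% lower of all genes. The list's median difference was 0.60. At day 0 the median difference was 0.87, with 27 of 33 higher in both experiments, against 20.4% of all genes, and limma called 10 of them higher at day 0, against 0.35% of all genes. Ms4a3 was higher by 1.81 at day 0 and 0.62 at day 3, and its ratio difference was therefore -1.20 ± 0.12 (limma adjusted p = 0.006). Mpo, the peroxidase of primary granules, had log2 day 3 levels of 12.54 and 11.90 in flox cells, against 10.43 and 10.69 in control cells, and was higher by 1.66 at day 3 and 1.93 at day 0. Elane, the neutrophil elastase gene, was the 1 gene lower at day 3, with 14.30 and 14.56 in flox cells, against 15.46 and 15.96 in control cells (difference -1.28 ± 0.16, limma adjusted p = 0.00575). When the flox array of experiment 1 was dropped, 7 were lower and 0 higher by ratio, and 6 were higher and 1 lower at day 3. Without each of the other arrays 3 to 5 were higher at day 3.

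Megakaryocyte, stem cell and mast cell lists also had negative ratio medians and positive day 0 medians, but few day 0 calls. Limma called 0 megakaryocyte and 0 stem cell genes at day 0, and 1 higher and 1 lower gene of the mast cell list. Of 18 megakaryocyte and platelet genes 9 were lower by ratio and 1 higher, with a median of -0.53. Of all genes 5.84% were lower by ratio and 5.42% higher. At day 3 the megakaryocyte median was -0.08 with 1 gene called each way. At day 0 17 of the 18 were higher in both experiments (median 0.67), against 20.4% of all genes. Gp9, a platelet glycoprotein gene, had ratios of -3.53 and -3.47 in flox cells and -1.94 and -1.99 in control cells, and differed by -0.52 ± 0.13 at day 3 (limma adjusted p = 0.0361) and 0.99 at day 0. Of 19 stem and progenitor genes, 7 were lower and 1 higher by ratio (median -0.49), while the median was 0.05 at day 3 and 0.48 at day 0. Of 12 mast cell, basophil and eosinophil genes 5 were lower by ratio and 0 higher, and Mcpt8, a basophil protease gene, differed by 1.49 at day 0. At day 3 Mcpt8 was well above background on 1 of 2 arrays in each group, so that its ratio difference of -1.52 ± 0.15 (limma adjusted p = 0.0061) rests on levels near background. Without the flox array of experiment 1 the ratio medians of the megakaryocyte and stem cell lists were -0.64 and -0.42, and none of their genes passed, while 2 of the mast cell list were lower. How many cells of each type the cultures held was not measured.

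Stromal and matrix genes were higher at day 3 mainly on the flox array of experiment 2. Of 27 measured, 12 were higher, 1 was lower and 14 missed the threshold. As a list they had a median difference of 0.66, but that median was 0.21 in experiment 1 and 1.52 in experiment 2. At day 0, 23 of the 27 were already higher in both experiments, against 20.4% of all genes. Their day 0 medians were 0.78 and 0.47. By ratio 1 was higher and 2 were lower, a share of 11.1% against 11.3% of all genes, with a median of 0.15. That ratio median joins experiments of opposite sign, with -0.38 in experiment 1 and 1.16 in experiment 2. Col1a1, a collagen chain of fibroblasts and bone cells, had log2 day 3 levels of 13.02 and 14.39 in flox cells, against 11.99 and 11.56 in control cells (difference 1.92 ± 0.46, limma adjusted p = 0.0332). Without the flox array of experiment 2, 4 were higher with a median of 0.12, and without that of experiment 1, 15 were higher with a median of 1.45. Without the control array of experiment 1, 1 gene was higher, and without that of experiment 2 none passed, with a median of 0.41. Agilent's processed signals gave 3 higher genes and no filter on dim probes gave 1. The log2 of the summed levels of the 4 measured stromal markers was 13.98 and 15.37 in flox cells, against 13.20 and 12.65 in control cells. The gene that was lower was Pecam1, an adhesion molecule of endothelium and leukocytes, at -1.41 ± 0.18 (limma adjusted p = 0.00571). The part of stromal cells in the other results of experiment 2 was not tested.

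**Figure D3:**
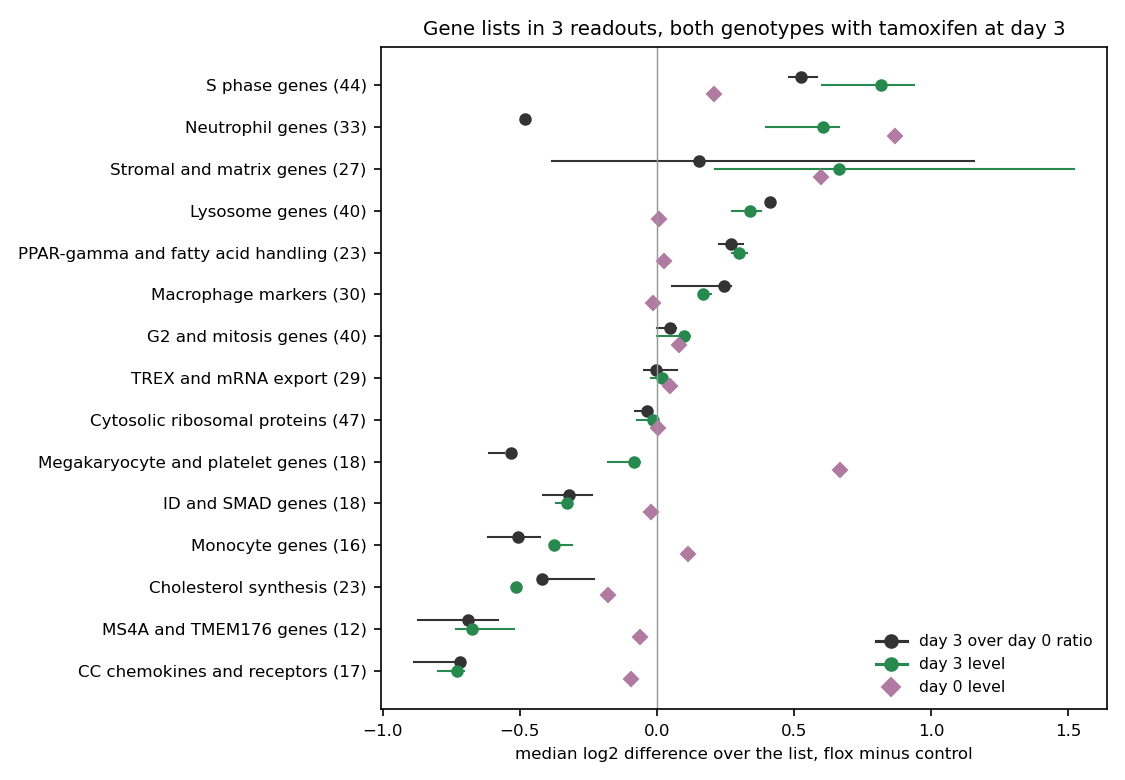
Median log2 difference, flox minus control, over the measured genes of 15 lists (number of genes in brackets) by ratio (black), at day 3 (green) and at day 0 (purple), with lines that span the medians of experiments 1 and 2. Lysosome and S phase lists lie right of zero and cholesterol, MS4A and CC chemokine lists left of it in both ratio and day 3 level, whereas neutrophil and megakaryocyte lists have day 0 medians of 0.87 and 0.67 and ratio medians of -0.48 and -0.53.

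A further set of genes differed between the genotypes in the same direction at day 0 and day 3. Limma called 86 genes, or 0.478%, at day 0, of which 59 were called in the same direction at day 3 and 0 in the opposite one. By the probe that stands for each gene, 39 of the 59 were higher and 20 lower in flox cells. By ratio 20 of them (33.9%) were also called, against 11.3% of all genes. At day 3, 45 of the 59 were called without the flox array of experiment 1, and without each of the other arrays 39 to 40, with no change of sign. All 59 had the same sign at day 3 in the cells without tamoxifen. Ifi44l, an interferon-induced gene on chromosome 3, had log2 day 3 levels of 10.35 and 10.28 in flox cells, against 6.35 and 6.27 in control cells, where it was not well above background, so that it was at least 11.7-fold higher (limma adjusted p = 0.000245). At day 0 its log2 levels were 9.89 and 10.02 in flox cells, against 6.25 and 6.32 in control cells, where it again was not well above background. Ifi44, its neighbour in the genome, had log2 day 3 levels of 11.63 and 11.27 in flox cells, against 8.34 and 8.50 in control cells, and differed by 3.03 at day 3 and 4.00 at day 0. Glo1, the glyoxalase gene on chromosome 17, differed by 1.71 at day 3 and 1.35 at day 0. These values are a description, since both days chose the genes.

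Of the 59 genes, 24 (40.7%) lie on chromosome 11, which also carries Thoc5, against 7.92% of all tested genes, 9.9% of the genes called at day 3 and 7.95% of those called by ratio. They lie on chromosome 11 between positions 5869675 and 121292073 of mm9, and 16 of the 24 start between 55 and 90 Mb. How many tested genes lie in that stretch was not counted. Of the 24, 12 were higher and 12 lower in flox cells. Slfn8, a Schlafen family gene, had log2 day 3 levels of 7.30 and 7.46 in flox cells, against 10.89 and 11.06 in control cells, and differed by -3.60 at day 3 and -2.84 at day 0. Nlrp1b, which encodes an inflammasome sensor, had 10.78 and 10.50 in flox cells, against 8.54 and 8.55 in control cells, and differed by 2.10 at day 3 and 2.68 at day 0. The chemokine gene Ccl6 differed by -1.88 at day 3 and -1.38 at day 0. Of the 17 measured CC chemokine and receptor genes 10 lie on chromosome 11, and the Ccl8 and Ccl12 differences at day 0 were 0.36 and -0.12.

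For some of these genes, probes at different positions disagreed. Xaf1, an apoptosis regulator, has a probe at chr11:72122169-72122228 with log2 day 3 levels of 9.75 and 9.10 in flox cells, against 12.85 and 13.03 in control cells. Its other probe, at chr11:72127175-72127234, had 13.92 and 13.69 in flox cells, against 7.68 and 7.90 in control cells, a difference of 6.01 the other way. The Xaf1 difference was -3.51 with the first probe, which has the higher mean signal over all arrays and stands for the gene, and 1.25 with the mean of its probes. A further Slfn8 probe differed by 0.22, and a further Nlrp1b probe by -1.23. No direction of expression is therefore read from Xaf1 or Nlrp1b, which enter the counts by direction, including that of the interferon list for Xaf1, only by the probe that stands for the gene. Whether sequence differences between the genotypes under the probes move these values was not tested.

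**Figure D4:**
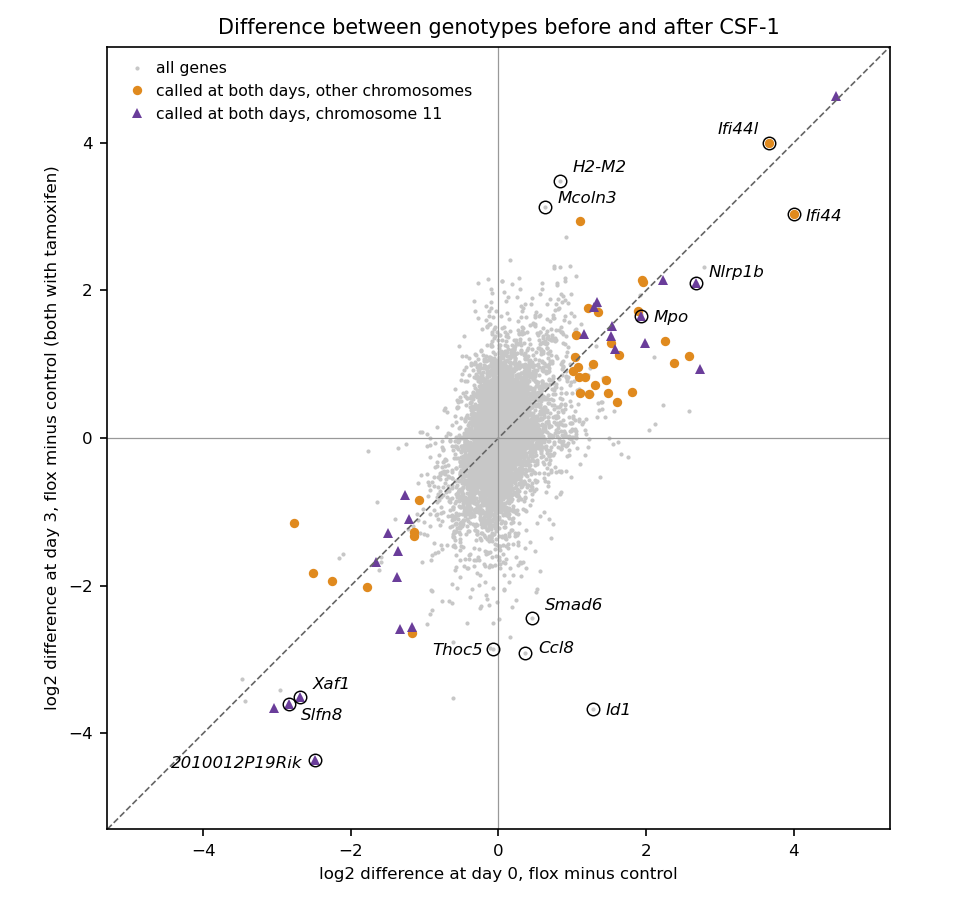
Log2 difference, flox minus control, at day 0 (x axis) and at day 3 with tamoxifen (y axis) for each tested gene (grey), with the genes called in the same direction on both days in orange, or as purple triangles where they lie on chromosome 11. Thoc5 lies near zero on the x axis, Ccl8, Smad6, Mcoln3 and H2-M2 at 0.36, 0.46, 0.62 and 0.83 and Id1 at 1.27, opposite in sign to its y value of -3.67; Ifi44, Ifi44l, Slfn8 and Xaf1 lie far from zero on both axes, closer to the dashed line of equal differences.

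Several groups of widely expressed genes had few or no calls. Of 47 cytosolic ribosomal protein genes and 20 aminoacyl-tRNA synthetase genes limma called 0 by ratio and 0 at day 3, and at an unadjusted p under 0.05 it counted 0 and 0 ribosomal genes and 2 and 3 synthetase genes. The ribosomal medians were -0.04 by ratio and -0.01 at day 3. Of 35 respiratory chain genes it called 0 by ratio (4 at an unadjusted p under 0.05) and 1 at day 3, and of 31 proteasome genes 1 by each readout. Among 29 genes for TREX or other mRNA export factors, 2 were higher at day 3 and 0 lower, a share of 6.9% that lies below the 17.4% of all genes, with a median of 0.02. They were Ddx39b, the RNA helicase of TREX, at 0.69 ± 0.10 (limma adjusted p = 0.00772), and the splicing factor gene Srsf3, at 0.56 ± 0.10 (limma adjusted p = 0.0137). Further Srsf3 probes differed by 0.44 and 0.06, and a further Ddx39b probe by 0.65. Leaving out the flox array of experiment 1 left 1 TREX or export gene higher and no call among the respiratory chain, proteasome, ribosomal or synthetase genes. Of 20 genes of mRNA 3' end processing, 2 were higher and 2 lower at day 3, a share of 20% that is close to that of all genes, and 0 and 2 without the flox array of experiment 1. The lower ones were Wdr33, a poly(A) signal recognition subunit, at -0.95 ± 0.13 (limma adjusted p = 0.00735), and Cpsf2, a cleavage factor subunit, at -0.62 ± 0.11 (limma adjusted p = 0.0161). Probes of the list disagreed for some genes. Another Wdr33 probe differed by 0.26, in the other direction, and for Cstf3, a cleavage stimulation factor subunit and 1 of the genes counted as higher, the probes differed by 1.02 and -1.46.

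Whether the genotype difference was particular to tamoxifen was tested as the difference between the genotype effects with and without it, on ratios. The cells with and without tamoxifen share their day 0 RNA. Limma called 205 genes, or 1.14%, and 517 genes (2.87%) differed between the genotypes without tamoxifen. Among the 24 genes with the largest ratio differences, 11 passed, but these genes were chosen by the effect with tamoxifen that enters the test. Mcoln3 differed by 2.55 ± 0.17 with tamoxifen and -0.80 ± 0.17 without (difference of effects 3.35, limma adjusted p = 0.00901), and Thoc5 by -2.85 and -0.42 (difference of effects -2.43, limma adjusted p = 0.00901). Outside those 24, Cd83 turned round: the ratio difference was 1.74 ± 0.16 with tamoxifen and -2.30 ± 0.16 without (difference of effects 4.04, limma adjusted p = 0.00901). Ube2c turned round the other way, at -0.73 ± 0.10 with tamoxifen and 1.29 ± 0.10 without (difference of effects -2.02, limma adjusted p = 0.00901), and Fabp4 was 1.75 ± 0.21 with and -0.90 ± 0.21 without (difference of effects 2.65, limma adjusted p = 0.0265).

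Other genes differed between the genotypes without tamoxifen too. Ccl8 differed by -3.36 ± 0.18 with tamoxifen and -2.78 ± 0.18 without (limma adjusted p = 0.0173 without), and the difference of effects was -0.58 and did not pass (limma adjusted p = 0.355). Nrg1, a growth factor gene, differed by -2.60 ± 0.18 with tamoxifen and -2.22 ± 0.18 without, with a difference of effects of -0.38 (limma adjusted p = 0.575). For Id1 the values were -4.95 ± 0.63 and -1.67 ± 0.63, and the difference of effects, -3.28, did not pass (limma adjusted p = 0.152). The S phase gene Uhrf1 differed by 1.00 ± 0.15 with and 1.03 ± 0.15 without (difference of effects -0.02, limma adjusted p = 0.98). The 205 calls rest on several arrays: limma called 0 genes (1887 to 2227 at an unadjusted p under 0.05) without either control array with tamoxifen, without the flox array of experiment 2 with tamoxifen or without either flox array without tamoxifen, and 24 without the flox array of experiment 1 with tamoxifen.

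**Figure D5:**
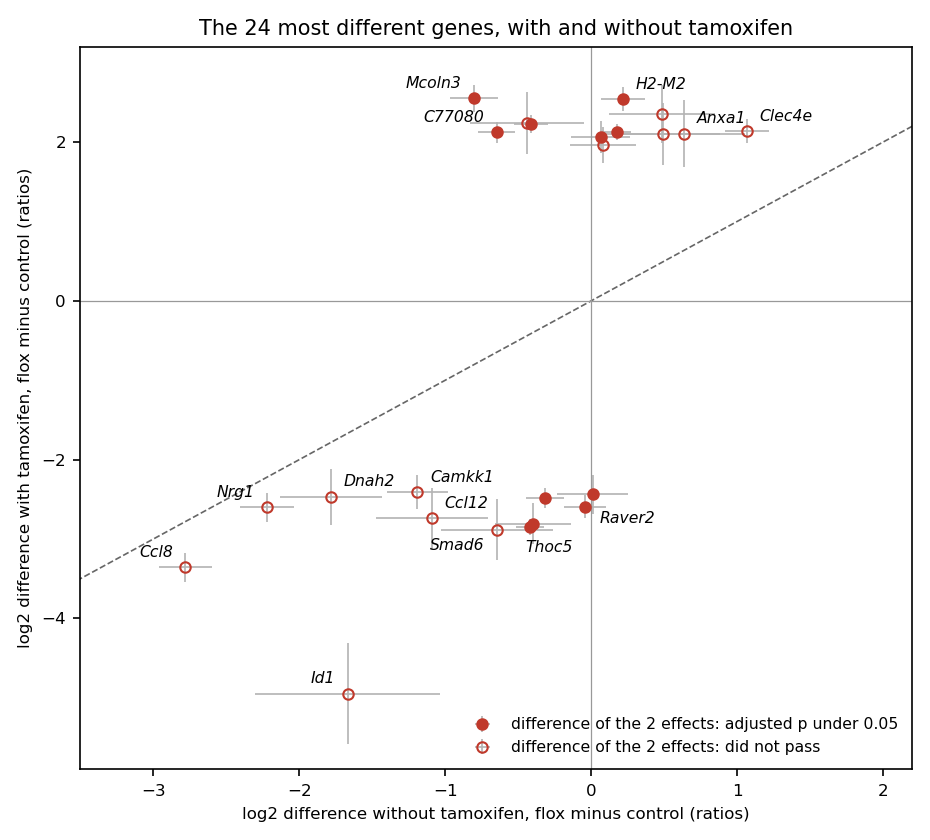
Log2 difference in the day 3 over day 0 ratio, flox minus control, with tamoxifen (y axis) against that without tamoxifen (x axis) for the 24 genes with the largest differences with tamoxifen; bars are the limma standard error (n = 2 arrays per group). Filled points mark the 11 genes whose effects differ at an adjusted p under 0.05; Ccl8 and Nrg1 lie near the dashed line of equal effects.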

How the data were processed

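Cytoplasmic RNA of mouse bone marrow derived macrophages was measured on 8 dual-colour Agilent arrays, 2 in each of 4 groups. Per the submitters' processing notes, the arrays were processed with Agilent Feature Extraction 10.7.3.1, and per the file headers with detrending, surrogates for low signals and LOWESS dye normalization. The deposited intensity values are the mean spot brightness, local background and processed signal of both dyes. The deposited log10 ratio is that of red over green processed signal, and the deposited value table holds the authors' log10 ratio of day 3 over day 0. Flags of 0 or 1 for spots above background are other deposited columns. No spot was saturated.

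Mean intensities were background-corrected with normexp (offset 50) and normalized by loess within arrays in limma 3.58.1 (R 4.3.3), with data.table (version 1.17.8) and statmod 1.5.0. The log2 ratios computed from the deposited intensities were turned to day 3 over day 0. Single-channel levels were taken after Aquantile scaling. Probes were kept if well above background on both arrays of a group in a channel, and the probe with the highest mean signal stood for a gene. Names came from the files, and for 26412 of 39429 probes from RefSeq's list of genes, and positions (mm9) from the array design. All 8 arrays were fitted with lmFit and eBayes as 4 group means with the experiment as a block, which leaves 3 residual degrees of freedom, and the threshold was an adjusted p of 0.05. The labels name 2 biological experiments, and arrays were paired by their number. Deviations of same-numbered arrays correlated at 0.31 to 0.73 over genes, where arrays of a genotype share day 0 RNA. Because all dyes were swapped between the experiments, these correlations cannot tell pairing of samples from a dye bias of the genes. For day 0, the 2 arrays of an RNA were averaged first. The labels do not say that the RNAs came from separate mice, so that p-values measure the spread between these samples. The fits were tested on simulated data. A gene that was not well above background in a group has a bound in place of a fold, the bright group's mean over the higher of the dim signal and the lowest signal well above background.

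The genes and the 48 gene lists were chosen with earlier results of these data known. Named genes are Thoc5, the 12 called genes with the largest difference in each direction by ratio and at day 3, and up to 4 members of each list with the smallest p by ratio. Other genes, among them the members that moved against their list, probe pairs, sex-linked genes and genes called on both days, were named after their values were seen. Alternatives were median centring, Agilent's processed signals, the deposited table, scale and quantile normalization, other filters on dim probes, the mean of all probes, day 0 RNA as a random block, no block, the 4 arrays alone and each array left out. A few genes are counted with the others but not reported here by name.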

Additional observations from a re-analysis of the deposited data

Results flagged for a closer look

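Of the genes named here, 27 had a genotype effect on the day 3 over day 0 ratio that differed between cells with and without tamoxifen by limma's test of that difference (adjusted p under 0.05). Over all genes 205 passed (1.14%). The named genes are a selected set, in part chosen by a large ratio difference with tamoxifen on the same arrays. That choice favours a difference in this test, so the 27 are a description. The values below are the log2 effect with tamoxifen minus the effect without it, each with 2 arrays per group. Thoc5, the targeted gene, had -2.43.

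The difference was positive for 13 genes. Cd83, of activated antigen-presenting cells, had 4.04, Mcoln3, the endosomal channel gene, 3.35, and H2-M2 2.32. The unnamed transcripts C77080 and Gm14461 had 2.77 and 2.64. Fabp4, the fatty acid binding protein, had 2.65, the early response gene Egr2 2.39 and Atp6v0d2, a proton pump subunit of osteoclasts, 2.24. Mctp1 had 2.00, Rasgef1a 1.96, the lysosomal genes Ctsb and Atp6v1a 1.15 and 1.12, and the macrophage gene Mpeg1 1.08.

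The difference was negative for the others. Raver2 had -2.55, Dmwd -2.45, Nrxn2 -2.41 and LOC100045212 -2.17. The mitotic genes Ube2c, Cdc20 and Cenpa had -2.02, -1.84 and -1.47. Of surface proteins, Klra2 had -1.85, Fcrls -1.81, Itgal -1.35 and Tmem176a -1.30. The transcription factor gene Klf2 had -1.71 and the phosphatase gene Acp5 -1.52.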

How the results depend on the processing

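With 2 arrays per group, single arrays set many calls. Leaving out each array in turn gave 0 to 325 genes by ratio, 497 to 1171 at day 3 and 0 to 284 for the difference between effects with and without tamoxifen, against 2026, 3141 and 205. Thoc5 was -2.86 to -2.83 by ratio, with the call lost without the control array of experiment 1 (-2.86, limma adjusted p = 0.0535), and -2.92 to -2.80 at day 3. Without the replicate block for the experiment, counts were 531 by ratio, 1620 at day 3, 16 at day 0 (86 with it) and 22 for the difference between effects. Requiring 2-fold gave 499 by ratio and 710 at day 3. Agilent's processed signals gave 1233 by ratio, 13 at day 0 and 56 between effects, and the deposited values gave 1239 by ratio and 59 between effects. Median centring gave 48 at day 0, 379 between effects and, by ratio, 1616 with a split of 621 higher and 995 lower, against 975 and 1051. No filter on dim probes gave 1888 at day 3 and 7 at day 0. A random block for day 0 RNA gave 824 between effects. The causes were not tested. Of the genes named, 57 called by ratio and 82 at day 3 kept their sign under each alternative that measured them (the strict filter on dim probes kept 52 and 76), except Xaf1 and Cstf3, at 1.25 and -0.22 with the mean of their probes; without an array, 0 to 24 and 46 to 64 passed. Leaving out a day 0 RNA was not run, since no residual degrees of freedom remain. Dim probes and compressed array signals limit small differences.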

Other observations

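Of 22 measured genes of osteoclast-type cells and fusion, 5 were higher in flox cells at day 3, 1 was lower and 16 did not pass, against 9.14% higher and 8.31% lower of all genes. Without the flox array of experiment 1, 3 were higher and 1 lower. Atp6v0d2, a proton pump subunit that also acts in cell fusion, had log2 day 3 levels of 12.77 and 13.68 in flox cells, against 11.24 and 11.39 in control cells (difference 1.91 ± 0.21, limma adjusted p = 0.00356). Cd9, a tetraspanin, had 16.61 and 16.83 in flox cells, against 15.29 and 15.22 in control cells (difference 1.47 ± 0.19, limma adjusted p = 0.00535), a call lost without either array of experiment 2 (limma adjusted p = 0.0561 and 0.0589). Acp5, the tartrate-resistant acid phosphatase, was the gene that was lower, with 14.70 and 14.88 in flox cells, against 15.88 and 16.01 in control cells (difference -1.16 ± 0.10, limma adjusted p = 0.00185). Among myeloid transcription factor genes 40% were called at day 3, against 17.4% of all genes. Of 35 myeloid transcription factor genes, 5 were higher and 9 lower, and 3 and 4 without the flox array of experiment 1. Klf2, which restrains inflammatory genes in monocytes, differed by -1.32 ± 0.14 (limma adjusted p = 0.00306) and Cebpa, a regulator of myeloid differentiation, by -1.17 ± 0.14 (limma adjusted p = 0.00463, and 0.0501 without the flox array of experiment 2), whereas Egr2 differed by 1.32 ± 0.13 (limma adjusted p = 0.0024).

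Of 26 cytokine and CXC chemokine genes, 9 were higher and 2 lower at day 3, and 5 and 2 without the flox array of experiment 1. Cxcl1, which attracts neutrophils, differed by 2.18 ± 0.28 (limma adjusted p = 0.0058, and 0.0561 without the control array of experiment 2). The cytokine and CXC chemokine list had a median difference of 0.23 at day 3 and 0.25 at day 0. By ratio 5 of its genes were higher and 5 lower, with a median of 0.08. Its share of calls at day 3 was 42.3%, against 17.4% of all genes. Of 38 interferon-stimulated genes, 10 were lower at day 3, 1 was higher and 27 missed the threshold, a share of 28.9% called. Leaving out the flox array of experiment 1, 7 were lower and 1 higher, and without each of the other arrays 1 to 2 were. The median difference was -0.39 at day 3 and -0.21 at day 0. Irf7, a transcription factor of the interferon response, differed by -1.01 ± 0.20 (limma adjusted p = 0.0184) and the exonuclease gene Isg20 by -0.99 ± 0.14 (limma adjusted p = 0.00735). Both calls are lost without any 1 of the 4 arrays, at limma adjusted p-values of 0.0676 to 0.143 for Irf7 and 0.0527 to 0.0681 for Isg20. Of 30 hypoxia and glycolysis genes, 4 were higher and 3 lower, and 1 each without the flox array of experiment 1. The share of hypoxia and glycolysis genes called at day 3 was 23.3%, against 17.4% of all genes, and that of the complement genes below 33.3%. Aldoc, an aldolase, differed by 0.93 ± 0.13 (limma adjusted p = 0.0066), while Ndrg1 differed by -1.73 ± 0.12 (limma adjusted p = 0.00122) and the hexokinase gene Hk2 by -0.91 ± 0.13 (limma adjusted p = 0.00743). The Aldoc call is lost without either array of experiment 2 (limma adjusted p = 0.0683 for both), and the Hk2 call without the experiment as a block (0.061) and without each array other than the flox array of experiment 2 (0.0513 to 0.0729). Of 18 complement genes, 2 were higher and 4 lower (2 and 2 without the flox array of experiment 1), among them Cfb, complement factor B, at -1.85 ± 0.14 (limma adjusted p = 0.00138).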
